A study of Ptychodera flava with 31 samples.

Results

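A set of 158 transcript models of the acorn worm Ptychodera flava, out of 35854 listed, rose to a short peak at mid to late gastrula and was low both before gastrulation and in later larvae and the adult. Members were chosen from the TPM (transcript abundance per library, scaled by length so that every library has the same sum) themselves. The mean TPM had to be highest of all 16 stages at mid1, mid2 or late gastrula and at least 5 there. At the unfertilized, 16-32 cell, early blastula and late blastula stages, and at every stage from Meschnikoff to adult, the mean could be at most 20% of that highest value. The early gastrula, 72hpf tornaria and Heider stages were held only below the peak. The rise and the later decline are therefore the definition of the set, and the values that chose it are given as a description with no test.

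RNA came from whole wild-type animals, as polyA-selected, strand-specific libraries. There were 31 libraries: 3 each of early and mid1 gastrula, 1 each of the unfertilized egg, the transforming larva and the adult, and 2 each of the other 11 stages. These 11 were the 16-32 cell embryo, early and late blastula, mid2 and late gastrula and the 72hpf (hours post fertilization) tornaria, followed by Heider, Meschnikoff, Krohn, Spengel and Agassiz larvae. The labels call them biological replicates without naming parents or cultures, so a p-value here speaks of the spread among these libraries only. Total estimated counts ran from 11539946 to 17288661 per library, and the scaling factors by the trimmed mean of M values (TMM) from 0.604 to 1.34.

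Ptychodera flava is a hemichordate, a marine relative of sea urchins and sea stars that shares gill slits with the chordates. In gastrulation the vegetal side of the hollow blastula folds inwards and forms the archenteron, the future gut, whose tip gives rise to the anterior mesoderm. The embryo then becomes a tornaria, a planktonic larva that swims and feeds with ciliary bands; the Heider, Meschnikoff, Krohn, Spengel and Agassiz larvae are named steps of tornaria growth and regression, and the last of them settles and transforms into the worm. Whole animals were measured, so a larger share of cells that carry a transcript and more of that transcript per cell cannot be told apart. None of the identifiers occurred in the reference gene table of 38920 genes, and no sequence of these models was used here, so members are named by identifier and no function is given to them.

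Of all transcripts, 2641 had their highest stage mean at one of the 3 stages, and 1867 of these reached 5 TPM there. Most were excluded by the limits on other stages: 401 were above the limit from Meschnikoff on only, 72 before early gastrula only, and 1236 on both sides. That left 158, fewer than the 200 that could have been kept. The highest mean fell at mid1 gastrula for 41 members, at mid2 gastrula for 80 and at late gastrula for 37. For members whose libraries differed by replicate number, this stage can depend on which libraries a stage had. At the edges of the rule, TCONS_00039329 and TCONS_00031288 were kept with a highest limited stage at 19.99% and 19.9% of the peak, while TCONS_00012881 and TCONS_00032857 were left out at 20.1% and 20.2%. The lowest peaks kept were 5.82 TPM for TCONS_00020147 and 5.47 TPM for TCONS_00013093, and the highest peaks below the minimum were 4.79 TPM for TCONS_00023887 and 4.68 TPM for TCONS_00032380.

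Together the members held 4.51% ± 0.202 of all TPM at mid2 gastrula (SD, n = 2) and 0.0222% in the egg. Their summed level was 222 TPM in the egg library, 212 ± 23.0 at 16-32 cells, 441 ± 22.7 at early blastula and 979 ± 45.4 at late blastula (SD, n = 2 each). It was 6749 ± 2141 TPM at early gastrula and 36319 ± 2064 at mid1 gastrula (SD, n = 3 each), then 45078 ± 2019 at mid2 gastrula and 30547 ± 170 at late gastrula (SD, n = 2 each). The largest gain in TPM between consecutive stages came between early and mid1 gastrula, and the libraries of these stages were far apart. Summed levels were 10421 ± 174 TPM in the 72hpf tornaria, 4222 ± 580 at Heider and 3233 ± 424 at Meschnikoff (SD, n = 2 each). They were 2558 ± 448 TPM at Krohn, 1875 ± 225 at Spengel and 886 ± 15.5 at Agassiz (SD, n = 2 each), with 767 at transformation and 427 in the adult. The decline was spread over more stages than the rise, and each stage mean after mid2 gastrula was below the stage before it. More stages were sampled after mid2 gastrula than before it. The rule left only early gastrula free before the peak stages, but the 72hpf tornaria and Heider after them, so this form was partly built in. TMM-scaled CPM are counts per library brought to 1 common sum and then divided by that library's TMM factor. On this scale the sums were 631 in the egg, 38402 ± 4210 at mid2 gastrula (SD, n = 2) and 422 in the adult. Before division by the factors, members held 0.0381% of estimated counts in the egg and 0.0508% in the adult, the same order as in TPM. The factors were 0.604 for the egg and 1.204 for the adult library, so the order of egg and adult depends on the TMM scaling.

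**Figure D1:**
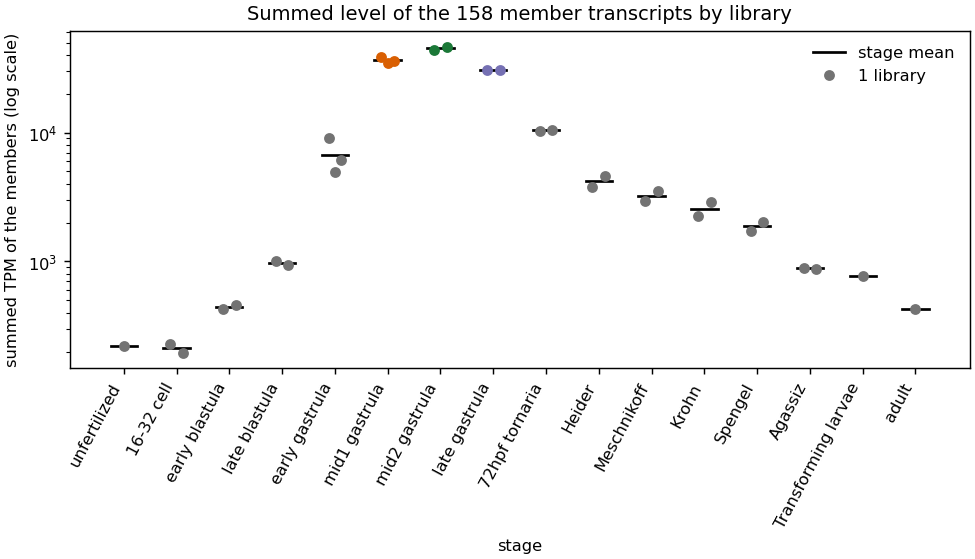
Summed TPM of the 158 members (vertical axis, log scale) in each of 31 libraries, by stage in developmental order. Points are libraries, bars are stage means, and the 3 stages at which a peak could fall are coloured; the mean is 45078 TPM at mid2 gastrula and 222 and 427 in the egg and adult libraries.

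The set spans a wide range of abundance. Peak means ran from 5.47 to 4994 TPM with a median of 72.6 and quartiles of 20.1 and 208; 65 members peaked at 100 TPM or more, 25 at 500 or more and 13 at 1000 or more. The member with the highest peak held 11.1% of the members' TPM at mid2 gastrula, the top 5 held 39.6% and the top 15 held 64.7%. Of the 100 most abundant transcripts of any kind, 7 were members at mid1 gastrula, 9 at mid2 gastrula and 4 at late gastrula. A summed level thus speaks mostly for these 15, and the counts of members below give each transcript the same weight.

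TCONS_00057120, a model of 387 bases, had the highest peak of the set. It had 793, 374 and 450 TPM in the early gastrula libraries, 3921, 3651 and 3491 at mid1, 4740 and 5249 at mid2, 3249 and 3284 at late gastrula and 674 and 657 in the 72hpf tornaria. Its libraries did not overlap between consecutive stages from late blastula to mid2 gastrula, and the egg library had 0.466 TPM. TCONS_00057178, also of 387 bases, had 278, 111 and 76.9 TPM at early gastrula, 2658, 3156 and 1369 at mid1, 4416 and 5219 at mid2 and 2306 and 3024 at late gastrula. Its mid1 libraries were more uneven than those of TCONS_00057120, with replicate 3 lowest, yet both mid2 libraries were above all of them.

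TCONS_00043037 (1896 bases) had a higher level outside the peak than most other abundant members. It had 96.5 TPM in the egg, 61.4 and 34.5 at 16-32 cells, 84.7 and 84.9 at early blastula, 204 and 126 at late blastula, 3026 and 3423 at mid2 gastrula, 233 and 306 at Meschnikoff, 285 at transformation and 45.8 in the adult. TCONS_00014119 (582 bases) had 16.0 TPM in the egg, 23.5 and 20.4 at 16-32 cells, 105 and 116 at early blastula, 823 and 839 at mid2 gastrula, and 134 and 165 at Meschnikoff, its highest limited stage at 17.96% of the peak. Both were thus detected in every library, at levels that varied outside the peak.

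TCONS_00055953 (1280 bases) had the opposite form, an almost closed pulse. It had at most 1.37 TPM in any library before gastrulation, then 210, 122 and 82.0 at early gastrula, 992, 1231 and 681 at mid1 and 1635 and 1497 at mid2. It had 792 and 996 TPM at late gastrula, 176 and 183 in the 72hpf tornaria, and 5.26 and 3.74 at Heider. No limited stage exceeded 0.890% of its peak. Across the set 4 members stayed at or under 1% of the peak at all 10 limited stages, 6 at or under 2%, 28 at or under 5% and 71 at or under 10%.

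Of the other members of the top 15, TCONS_00032650 (768 bases) had 2558 and 2791 TPM at mid2 and 2864, 2337 and 2138 at mid1 gastrula, values that overlap. TCONS_00007399 (1373 bases) had 1458, 1286 and 1356 TPM at mid1 and 1461 and 1548 at mid2, then 551 and 580 at late gastrula, below every mid-gastrula library. TCONS_00029689 (2550 bases) had 738, 644 and 743 TPM at mid1, 1249 and 1292 at mid2 and 885 and 1049 at late gastrula, so that the 3 stages were apart. The remaining members of this group with a peak at mid2 were TCONS_00041093, TCONS_00056793 and TCONS_00050691, at 1362 ± 211, 1010 ± 96.1 and 878 ± 18.4 TPM (SD, n = 2 each).

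The top 15 members with a peak at mid1 were TCONS_00000276, TCONS_00000277, TCONS_00015571 and TCONS_00008368. TCONS_00015571 (1242 bases) had 1722, 1820 and 1916 TPM at mid1, 1582 and 1461 at mid2 and 607 and 707 at late gastrula, in libraries that do not overlap. TCONS_00000276, of only 195 bases, had 2361, 1351 and 4258 TPM at mid1, and its neighbour in numbering TCONS_00000277 (324 bases) had 1076, 781 and 1879. Replicate 3 was highest and replicate 2 lowest for both, so their mid1 means of 2656 ± 1476 and 1245 ± 568 TPM (SD, n = 3 each) carry a wide error.

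**Figure D2:**
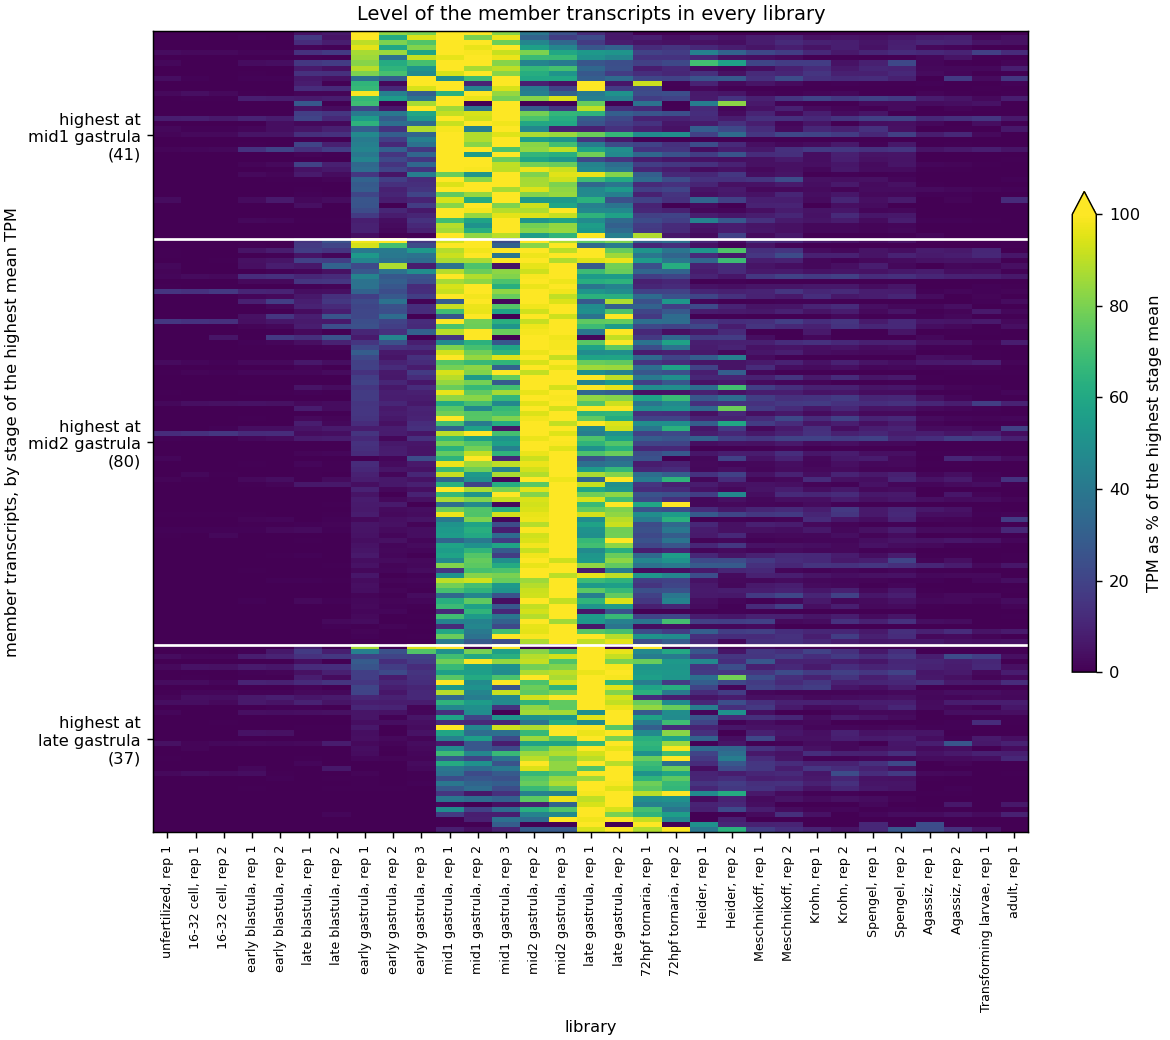
TPM of each member in each of the 31 libraries (columns), as a percentage of that member's highest stage mean (colour; values over 100 share the top colour), with members grouped by the stage of that mean (41 at mid1, 80 at mid2 and 37 at late gastrula). The bright block covers mid1 to late gastrula, and it reaches into early gastrula for the first group and into the 72hpf tornaria for the last.

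As a percentage of each member's own peak, the median was 0.217% at early blastula, 1.11% at late blastula, 10.98% at early gastrula, 72.8% at mid1, 100% at mid2 and 69.3% at late gastrula. It was 25.8% in the 72hpf tornaria, 9.57% at Heider, 7.72% at Meschnikoff, 5.48% at Krohn, 4.57% at Spengel, 1.40% at Agassiz, 0.506% at transformation and 0.390% in the adult. The limit was met with more room before gastrulation than after it. Over the limited stages the highest value came before early gastrula for 34 members and at Meschnikoff or later for 123, with medians of 1.46% and 8.98% of the peak on the 2 sides over all members. Fewer limited stages lay before early gastrula than from Meschnikoff on, so the highest values of the 2 sides are not like for like. In the egg 84 members (53.2%) had 0 counts, and 39 had 0 counts in the adult. In total 25 had 0 counts in the egg, both 16-32 cell and the adult libraries.

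Most members were at 50% of their peak or more at 3 stages. The number of such stages, consecutive or not, was 1 for 5 members, 2 for 46, 3 for 90, 4 for 15 and 5 for 2. The first of them was early gastrula for 19, mid1 for 95, mid2 for 39 and late gastrula for 5. The last was mid1 for 5, mid2 for 36, late gastrula for 73, the 72hpf tornaria for 35 and Heider for 9. The commonest first and last stages, in 54 members, were mid1 and late gastrula.

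The members that peaked first and last differed on both flanks, at stages the rule left free below the peak. At early gastrula the median was 36.5% of the peak for the 41 members highest at mid1, 9.08% for the 80 highest at mid2 and 2.71% for the 37 highest at late gastrula. In the 72hpf tornaria the medians were 14.8%, 25.6% and 60.0% in the same order, and at Heider 7.79%, 8.55% and 16.4%. At least 50% of the peak was present at early gastrula in 16 of the 41, 2 of the 80 and 1 of the 37, and in the 72hpf tornaria in 0 of the 41, 8 of the 80 and 31 of the 37. These groups were made from the same stage means, so the shift is a description of form and no test was run on it.

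**Figure D3:**
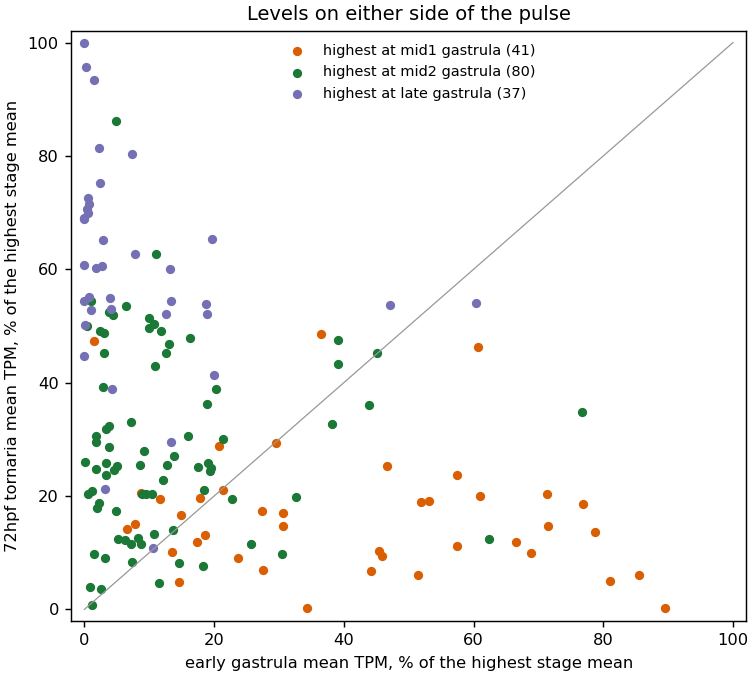
Mean TPM of each member at early gastrula (horizontal axis) and in the 72hpf tornaria (vertical axis), both as a percentage of its highest stage mean; 1 point per member, coloured by the stage of that mean, with the line of equal levels. Members highest at mid1 gastrula lie mostly under the line (medians 14.8% in the 72hpf tornaria and 36.5% at early gastrula) and those highest at late gastrula mostly above it (medians 60.0% and 2.71%).

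Changes between stages were tested with edgeR's quasi-likelihood test on the estimated counts, in 1 fit over all 31 libraries and 30661 transcripts, all 158 members among them; fold changes are therefore of TMM-scaled counts, while the levels beside them are TPM. Calls needed an adjusted p (Benjamini-Hochberg, over all transcripts tested) under 0.05 and a change of at least 2-fold. Only 5 contrasts whose direction the rule does not fix for the whole set were made, and contrasts that share a stage share its libraries. A member's own peak stage does fix the direction of its change within mid1 to late gastrula, so splits by peak stage are given as a description. The next 3 comparisons order the levels within those stages. The rule places every member's highest mean there and limits stages on both sides. Part of the members' difference from all transcripts in these comparisons was therefore built into their choice.

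From mid1 to mid2 gastrula 9 members were called higher and 3 lower, where 2.39% and 0.554% of all tested transcripts were called higher and lower. The members' median log2 fold change was 0.46, and that of all tested transcripts 0. TCONS_00018509 (5502 bases) had 25.1 and 25.4 TPM at mid2, against 8.71, 3.78 and 8.01 at mid1, with no overlap. Its log2 fold change of 1.97 ± 0.34 (SE, n = 2 and 3; edgeR adjusted p = 0.00188) was called in every alternative run. TCONS_00001365 (360 bases) had 434 and 487 TPM at mid2, against 148, 187 and 80.8 at mid1, a log2 fold change of 1.76 ± 0.37 (SE, n = 2 and 3; edgeR adjusted p = 0.00863). Its adjusted p was 0.144 without mid2 replicate 3. TCONS_00011028 was called with a log2 fold change of 1.75, but not in every alternative run. Among those that fell, TCONS_00030535 and TCONS_00030528 had log2 fold changes of -1.95 and -1.27, and neither was called in every alternative run. TCONS_00008368 (1075 bases) had 404 and 254 TPM at mid2, against 1049, 1194 and 840 at mid1, a log2 fold change of -1.59 ± 0.37 (SE, n = 2 and 3; edgeR adjusted p = 0.0165). That call was lost without either mid2 library, where the adjusted p reached 0.301. Only 2 of the 12 calls held in each of the 10 other fits: without mid2 replicate 3 there were 2 higher and 0 lower, without mid2 replicate 2 there were 5 higher and 0 lower, and without mid1 replicate 1 there was 1 lower.

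From mid2 to late gastrula 0 members were called higher and 5 lower, where 1.32% and 0.232% of all tested transcripts were called. At an unadjusted edgeR p under 0.05 there were 7 higher and 36 lower members, where 8.66% and 5.43% of all tested transcripts were. DESeq2 called 2 higher and 14 lower members, where 2.70% and 0.365% of all were called. The members' median log2 fold change was -0.55, and that of all tested transcripts 0. TCONS_00026669 (3254 bases) had 10.97 and 4.91 TPM at late gastrula, against 40.7 and 37.1 at mid2, a log2 fold change of -2.39 ± 0.43 (SE, n = 2 each; edgeR adjusted p = 0.00505). TCONS_00046374 (1520 bases) had 201 and 182 TPM at late gastrula, against 587 and 625 at mid2, a log2 fold change of -1.77 ± 0.30 (SE, n = 2 each; edgeR adjusted p = 0.00299). Its adjusted p was 0.0551 without late gastrula replicate 2, and that of TCONS_00026669 reached 0.103 when 1 library was left out. None of the 5 calls held in all 9 other fits: there were 0 without late gastrula replicate 2, 1 without mid2 replicate 2 and 3 without mid2 replicate 3.

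Over the longer step from mid1 to late gastrula 17 members were called higher and 22 lower, where 9.03% and 3.05% of all tested transcripts were called. The members' median log2 fold change of -0.01 was near 0, since gains and losses were about equally many. Of the 17 higher, 15 peaked at late gastrula and 2 at mid2, and of the 22 lower, 19 peaked at mid1 and 3 at mid2. TCONS_00018509 had 56.2 and 57.9 TPM at late gastrula, against 8.71, 3.78 and 8.01 at mid1, a log2 fold change of 3.04 ± 0.35 (SE, n = 2 and 3; edgeR adjusted p = 3.40e-06). TCONS_00032512 (1407 bases) had 113 and 153 TPM at late gastrula, against 31.7, 35.9 and 32.9 at mid1, a log2 fold change of 1.96 ± 0.35 (SE, n = 2 and 3; edgeR adjusted p = 0.000358). TCONS_00008368 had 132 and 65.7 TPM at late gastrula, against 1049, 1194 and 840 at mid1, a log2 fold change of -3.42 ± 0.41 (SE, n = 2 and 3; edgeR adjusted p = 6.18e-06). These 3 transcripts were called in every alternative run. TCONS_00009232 and TCONS_00012811 were also called, with log2 fold changes of 3.11 and -3.15, but not in every alternative run. Of all calls, 8 of the 17 and 12 of the 22 held in each of the 10 other fits, with 11 higher and 13 lower without late gastrula replicate 1 and 9 and 12 without late gastrula replicate 2.

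**Figure D4:**
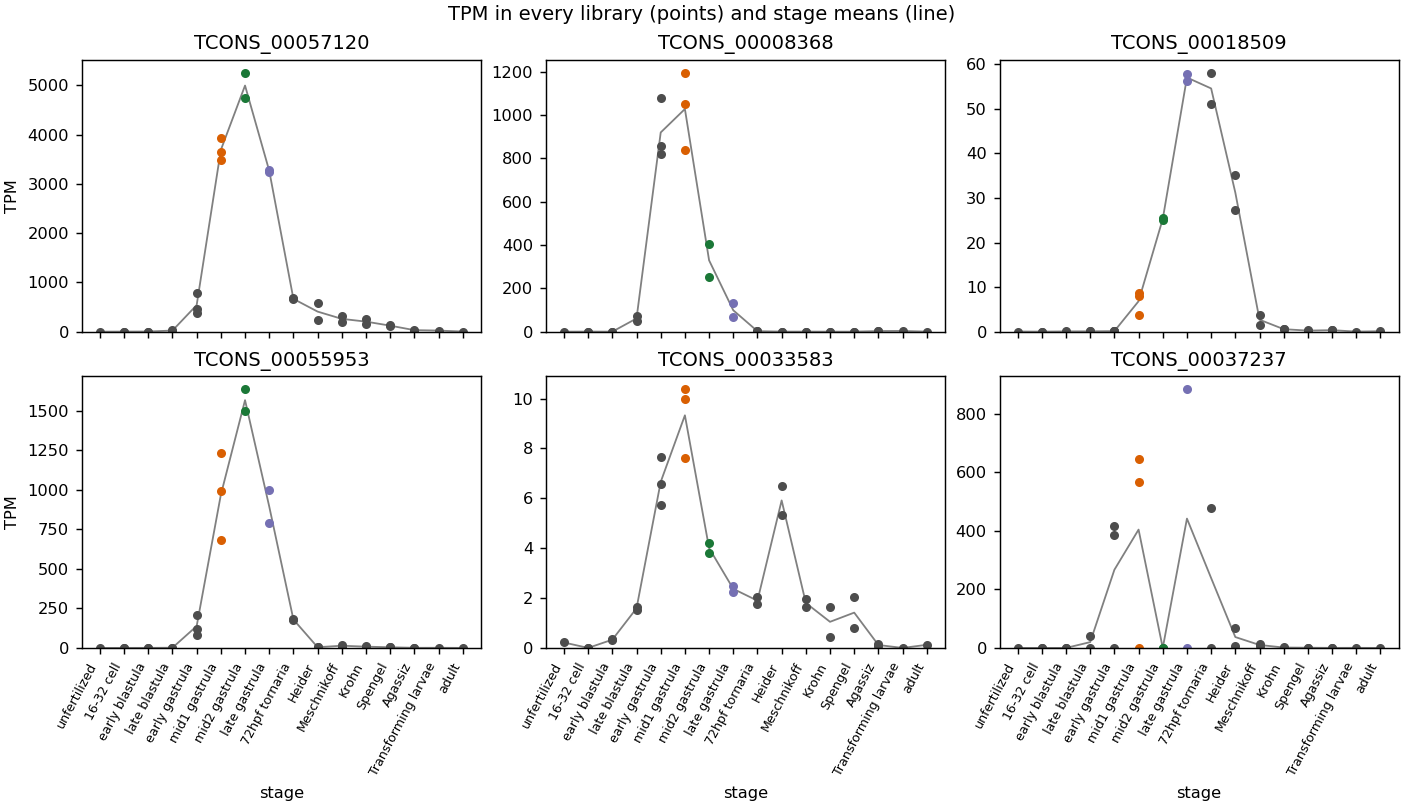
TPM of 6 members by stage, with 1 point per library, the line through the stage means, and mid1, mid2 and late gastrula libraries coloured. TCONS_00008368 is already high at early gastrula, TCONS_00018509 stays high into the 72hpf tornaria, and TCONS_00055953 is a closed pulse. TCONS_00033583 is higher at Heider than in the 72hpf tornaria. TCONS_00037237 is at 0 in some libraries and at 645 or 883 TPM in others of the same stage.

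The stages just outside the peak were compared to ask which flank of the pulse was higher. In the 72hpf tornaria 72 members were called higher than at early gastrula and 23 lower, where 23.2% and 14.0% of all tested transcripts were called higher and lower. The share of members called higher was 45.6%, and the share called lower, 14.6%, was near that of all transcripts. The members' median log2 fold change was 0.96, and that of all tested transcripts 0.08. By peak stage, the 72 comprised 30 members highest at late gastrula, 41 at mid2 and 1 at mid1, while the 23 comprised 19 highest at mid1 and 4 at mid2. Early gastrula stands next to late blastula, a stage the rule limits to 20% of the peak, whereas Heider lies between the 72hpf tornaria and the limited larvae, so part of this difference between the flanks was built into the choice of members.

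Large differences between the flanks ran in both directions. TCONS_00018509 had 51.1 and 58.0 TPM in the 72hpf tornaria, against 0.0754, 0.181 and 0.112 at early gastrula, a log2 fold change of 8.69 ± 0.48 (SE, n = 2 and 3; edgeR adjusted p = 2.75e-11). TCONS_00031853 (1236 bases) was also called and had 15.6 and 16.0 TPM in the 72hpf tornaria, against 0, 0 and 0.0825 at early gastrula. TCONS_00032513 (999 bases) had 46.9 and 41.5 TPM in the 72hpf tornaria, against 0.444, 0.265 and 0 at early gastrula, a log2 fold change of 7.30 ± 0.63 (SE, n = 2 and 3; edgeR adjusted p = 1.01e-08). TCONS_00028396 (3038 bases) had 80.9 and 116 TPM in the 72hpf tornaria, against 1.65, 1.63 and 1.32 at early gastrula, a log2 fold change of 5.90 ± 0.40 (SE, n = 2 and 3; edgeR adjusted p = 3.59e-10). TCONS_00013093 (2104 bases) had 4.84 and 6.09 TPM in the 72hpf tornaria and 0 counts in all 3 early gastrula libraries. TCONS_00018509, TCONS_00028396 and TCONS_00013093 had the highest shares of their peaks in the 72hpf tornaria, at 95.7%, 93.5% and 99.9%.

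TCONS_00008368 had 2.19 and 2.29 TPM in the 72hpf tornaria, against 1080, 859 and 820 at early gastrula, a log2 fold change of -8.80 ± 0.56 (SE, n = 2 and 3; edgeR adjusted p = 1.82e-10). Its early gastrula mean was already 89.5% of the peak, the highest share of any member, after 51.4 and 70.5 TPM at late blastula. TCONS_00026669 had 0.376 and 0.0923 TPM in the 72hpf tornaria, against 29.5, 13.2 and 31.02 at early gastrula, a log2 fold change of -6.77 ± 0.57 (SE, n = 2 and 3; edgeR adjusted p = 7.21e-09). TCONS_00030528 (1945 bases) had 5.85 and 5.16 TPM in the 72hpf tornaria, against 99.3, 88.7 and 80.3 at early gastrula, a log2 fold change of -4.14 ± 0.34 (SE, n = 2 and 3; edgeR adjusted p = 9.63e-09). All 6 transcripts given with a fold change in this comparison were called in every alternative run, as were 60 of the 72 higher and 14 of the 23 lower members.

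From the 72hpf tornaria to Heider 1 member was called higher and 89 lower, where 7.78% and 7.05% of all tested transcripts were called higher and lower. Heider stands next to a limited stage, so a fall over the 2 stages together was built in for members still high in the 72hpf tornaria. The members' median log2 fold change was -1.76, and that of all tested transcripts 0.03. TCONS_00055953 had 5.26 and 3.74 TPM at Heider, against 176 and 183 in the 72hpf tornaria, a log2 fold change of -5.69 ± 0.50 (SE, n = 2 each; edgeR adjusted p = 1.80e-06). TCONS_00030118 (963 bases) had 10.2 and 12.1 TPM at Heider, against 305 and 584 in the 72hpf tornaria, a log2 fold change of -5.69 ± 1.16 (SE, n = 2 each; edgeR adjusted p = 0.00202). TCONS_00001365 had a log2 fold change of -4.50 ± 0.50 (SE, n = 2 each; edgeR adjusted p = 1.58e-05). These 3 were called in every alternative run, as were 41 of the 89. The number called lower was 58 without 72hpf tornaria replicate 2 and 59 without Heider replicate 2.

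**Figure D5:**
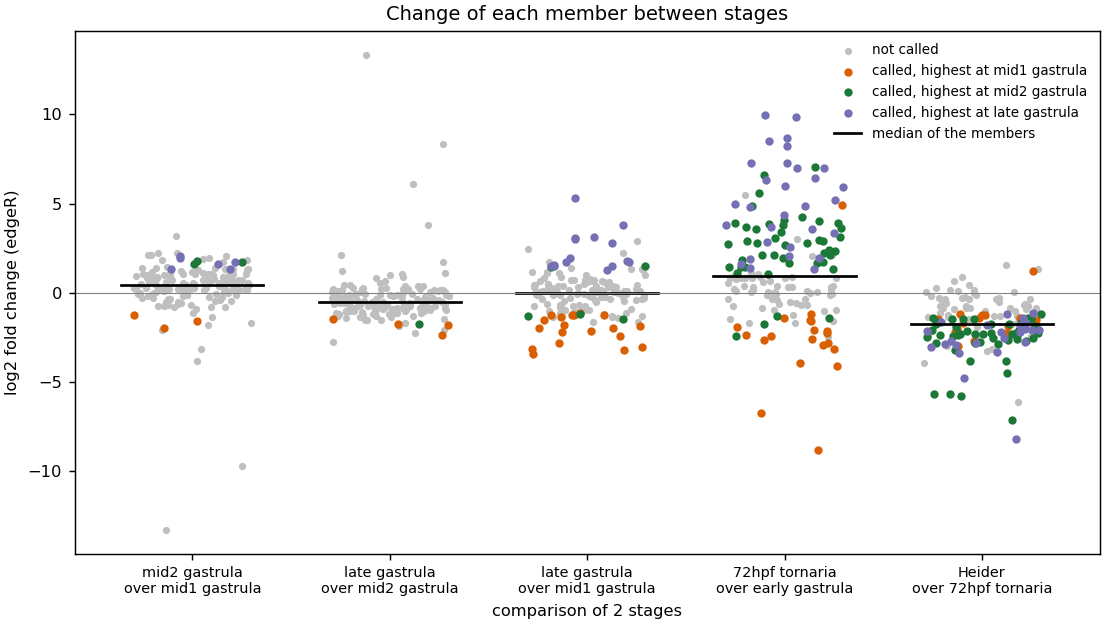
edgeR log2 fold change (vertical axis, later stage over earlier stage) of each of the 158 members in 5 comparisons of stages. Grey points were not called, coloured points were called and are coloured by peak stage, and the bars are the members' medians (0.46, -0.55, -0.01, 0.96 and -1.76); grey points far from 0 include members at 0 in some libraries.

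A rise from the 72hpf tornaria to Heider was called for 1 member. TCONS_00033583 (1402 bases) had 6.50 and 5.33 TPM at Heider, against 1.77 and 2.02 in the 72hpf tornaria, a log2 fold change of 1.24 ± 0.43 (SE, n = 2 each; edgeR adjusted p = 0.0479). It had 7.65, 5.75 and 6.58 TPM at early gastrula, and returned to 1.95 and 1.66 TPM at Meschnikoff. The call was lost in 6 of 9 other fits, where the adjusted p reached 0.203; they were those without the filter, on only the 4 libraries compared, and without each of the 4 libraries in turn. TCONS_00023047 (723 bases) had 37.2 and 51.3 TPM at Heider, against 36.7 and 27.6 in the 72hpf tornaria, and was not called (edgeR adjusted p = 0.803).

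At Heider 9 members had at least 50% of their peak, TCONS_00033583 and TCONS_00055054 after 20.3% and 18.9% in the 72hpf tornaria. For TCONS_00055054 that 18.9% rested on 42 counts in replicate 1 and 0 in replicate 2, with 47 and 84 counts at Heider. Of the 9 members, 4 had nearby identifiers: TCONS_00055048, TCONS_00055051, TCONS_00055054 and TCONS_00055059. With TCONS_00055058 they were noticed after their values were seen, and the sources used here do not say how identifiers were numbered. TCONS_00055048 (774 bases) had 189 and 164 TPM at mid2 gastrula, 176 and 176 at late gastrula, 86.9 and 90.7 in the 72hpf tornaria, and 59.6 and 137 at Heider. TCONS_00055059 (1737 bases) had 179 and 157, 170 and 162, 82.0 and 83.3, and 60.2 and 117 TPM at the same 4 stages. TCONS_00055051 (1282 bases) had 53.9 and 44.2, 51.4 and 49.99, 28.6 and 26.6, and 18.7 and 39.9 TPM. For these 3 transcripts Heider replicate 2 was above both 72hpf tornaria libraries and Heider replicate 1 was below both.

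In 13 runs of consecutive identifiers there were 30 members (19.0%). The 17 pairs within runs had a Pearson correlation of 0.844 to 1.00 over the 16 stage means (median 0.963), and 11 had the same peak stage. All 12403 pairs of members had a median correlation of 0.857, since the rule gave all of them a like profile. TCONS_00057118 (527 bases), TCONS_00057119 and TCONS_00057120 (387 bases each) formed one such run. TCONS_00057118 had 714 and 708 TPM and TCONS_00057119 had 166 and 173 TPM at mid2 gastrula, against 4740 and 5249 TPM for TCONS_00057120. TCONS_00032512, TCONS_00032513 and TCONS_00032514 (327 bases) all peaked at late gastrula, at 133, 62.6 and 42.1 TPM. Estimated counts were fractional, by more than 0.001, in at least 1 library for 106 members (67.1%), against 48.5% of all models with a mean of 5 TPM at some stage. A fractional count arises when reads are shared between similar models, and levels of those members are uncertain. TCONS_00057120, TCONS_00057178, TCONS_00055953, TCONS_00029689, TCONS_00018509 and TCONS_00028396 were among them, also at their peak stages. Of the 30 members in runs, 8 had whole counts in every library, TCONS_00000276 and TCONS_00000277 among them.

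Length was not itself a limit of the rule, but it enters TPM, and so the minimum of 5 TPM and the ranking by peak. The sets compared here had to reach the same minimum. The members' median length was 1294 bases (range 195 to 7746), against 1674 for the other 1709 transcripts that reached 5 TPM with their highest mean at the same 3 stages and 1815 for all models with a mean of 5 TPM at some stage. Models under 1000 bases made up 39.9% of members, 30.02% of those other 1709 and 28.2% of all models at 5 TPM. Within the set the median was 1280 bases in the 79 members of higher peak and 1326 in the 79 of lower peak.

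Libraries of a stage agreed closely for most members and diverged for some. At the peak stage the highest library was at most 1.5 times the lowest for 124 members (median ratio 1.17) and over 2 times for 18. Early gastrula was the most uneven stage: summed levels were 9124, 4967 and 6156 TPM in replicates 1, 2 and 3, and the medians of percent of peak were 15.2%, 6.84% and 9.24%. Replicate 1 was the highest of the 3 for 100 members (63.3%), against 32.9% of the other 1709 transcripts with a peak at these stages and 22.1% of all tested transcripts. What set replicate 1 apart was not tested.

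TCONS_00037237 (465 bases) was present in some libraries of a stage and at 0 counts in others. It had 384, 0 and 416 TPM in replicates 1, 2 and 3 of early gastrula and 645, 0 and 566 at mid1. In mid2 replicates 2 and 3 it was at 0; replicates 1 and 2 had 883 and 0 TPM at late gastrula and 477 and 0 in the 72hpf tornaria. TCONS_00055054 (996 bases) was at 0 in the same libraries of these 5 stages, with 8.03, 0 and 10.1 TPM at early gastrula, 11.8, 0 and 23.1 at mid1 and 8.94 and 0 at late gastrula. TCONS_00003859 (219 bases) had 28.3 and 0 TPM at late gastrula and 19.6 and 0 in the 72hpf tornaria. The peak stage of these 3 members rests on the libraries in which they were found.

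Less complete forms of the same split were seen in other members. TCONS_00012374 (1650 bases) had 21.0, 0.651 and 36.7 TPM in replicates 1, 2 and 3 of early gastrula, 44.2, 3.16 and 48.8 at mid1, and 2.77 and 1.55 in mid2 replicates 2 and 3. Replicates 1 and 2 had 61.0 and 1.96 TPM at late gastrula and 29.4 and 0.261 in the 72hpf tornaria. TCONS_00037441 (963 bases) had the reverse order, with 3.35, 5.56 and 0 TPM at early gastrula, 4.21, 20.1 and 0 at mid1, 16.8 and 14.5 at mid2 and 5.95 and 15.8 at late gastrula. Replicate 2 and both mid2 libraries were thus on one side for both transcripts, low for the first and high for the second. In TCONS_00037441, however, replicate 3 was the number at 0 at early and mid1 gastrula, and replicate 1 lay between.

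Replicate 3 was also set apart in other members. TCONS_00030118 had 36.7, 36.7 and 1.84 TPM in replicates 1, 2 and 3 of early gastrula and 187, 243 and 13.7 at mid1. TCONS_00039329 (2428 bases) had 79.7, 95.4 and 13.5 TPM at early gastrula and 76.3, 129 and 19.0 at mid1. By a rule set after these values were seen, 23 members (14.6%) had 1 replicate number at least 2-fold above or below both others at both early and mid1 gastrula, against 5.90% of the 13760 transcripts that reached 5 TPM at 1 of the 3 stages. Members at 0 counts in some libraries of mid1 to late gastrula and at 5 TPM or more in others numbered 8 (5.06%), against 1.30% of the same 13760. The 13760 were not chosen to be low at other stages, as the members were, so both comparisons are between unlike sets. Of the 23, 10 had replicate 3 below both others and 10 had replicate 2 below both others. The former peaked mostly at mid2, the latter mostly at mid1 or late gastrula. Mid2 had only libraries numbered 2 and 3, so the peak stage of such members can depend on which libraries a stage had. Whether libraries of one number came from the same parents is not given by the labels, and its part in these differences was not tested.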

How the data were processed

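Per the labels' protocols, RNA was isolated with the RNeasy Micro kit and made into libraries with the TruSeq Stranded mRNA kit. The authors deposited 1 table per library with estimated counts and TPM (reads scaled by effective length and library) for each transcript model. The submitters' processing notes name kallisto and edgeR; no version, build or origin of the models was given in the sources used here. Titles gave the stage and the replicate number.

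Members were found on stage means of the deposited TPM, which are shares of a library. Estimated counts were rounded and fitted in R 4.3.3 with edgeR 4.0.16 (TMM scaling, filterByExpr by stage, trended dispersion, 1 coefficient per stage, 31 libraries, 15 residual degrees of freedom). Stages of 1 library are assumed to vary like the rest. The fit was also run on simulated counts with set changes, drawn without splits by replicate number, and its outcome is not given here. Alternatives were DESeq2 1.42.0, its size factors in edgeR, no filter, adjusted p alone, only the libraries compared, a replicate block, and each library left out. Named were the 15 highest peaks, up to 3 called members of largest rise and fall per contrast (no overlap, at least 10 CPM), the 3 of highest flank shares and of widest spread, and those at the rule's edges, plus some chosen after their values were seen. Members, lists and tests were chosen with earlier results of these data known.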

Additional observations from a re-analysis of the deposited data

How the results depend on the processing

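The rule gave 158 members; a limit of 10% of the peak gave 71 and of 30% gave 258, which include all 158. TMM-scaled CPM gave 169 (132 shared), medians 161, a minimum of 10 TPM 143, and leaving out 1 library 154 to 169. From mid1 to mid2 gastrula DESeq2 called 5 lower; leaving out 1 library gave 2 to 8 higher and 0 to 3 lower. From mid2 to late gastrula DESeq2 called 2 higher and 14 lower, the fit on only the 4 libraries compared 3 and 29, and leaving out 1 library 0 higher and 0 to 5 lower. The replicate block, with the replicate number of the titles as a term, gave 14 lower there and moved no other count by more than 1.5 times. Deviations of same-numbered libraries correlated at 0.021 there, at 0.011 for Heider and the 72hpf tornaria, at -0.017 and -0.063 for mid2 and mid1, at 0.240 and 0.526 for late and mid1 gastrula, and at 0.146 and 0.4501 for the 72hpf tornaria and early gastrula. With fewer than 3 pairs per comparison, pairing could not be decided. From mid1 to late gastrula leaving out 1 library gave 9 to 17 higher and 12 to 22 lower, and for the 72hpf tornaria over early gastrula 67 to 80 and 16 to 27. For Heider over the 72hpf tornaria the 1 higher call was lost without the filter (0) and on only the libraries compared (0, with 53 lower); leaving out 1 library gave 0 to 0 higher and 58 to 75 lower. DESeq2 size factors moved the median log2 fold change of all transcripts to 0.23 for the 72hpf tornaria over early gastrula and to 0.16 for Heider over the 72hpf tornaria, and the share of higher calls there to 62.6%, against 52.5% with TMM. The members' median for late over mid1 gastrula changed sign with it, at 0.05. No called member changed sign in any fit. The causes were not tested.

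With 2 or 3 libraries per stage, the counts of calls within mid1 to late gastrula and at Heider moved by over 1.5 times when single libraries were left out. TPM are shares, so a change of other transcripts moves them. Levels of models that share reads are uncertain, and 0 counts in 1 library mean not detected at 11539946 to 17288661 estimated counts. DESeq2 gave no adjusted p for 19 members at mid2 to late gastrula, which were not counted as lost.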
